A study of Mus musculus with 12 samples.

Results

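Limk1, 1 of the genes lost in the Williams–Beuren syndrome (WBS) deletion, was analysed together with 6 genes that act with it on cofilin. The 7 genes, Limk1, Limk2, Tesk1, Cfl1, Cfl2, Ssh1 and Ssh2, are those reported of 9 members chosen by name, as the deleted kinase, its paralogue and regulators of cofilin, and each was found once among the 17202 genes of the table of normalized counts. RNA was sequenced from the cortex of 12 mice (frontal cortex in the study's methods), with 3 mice in each of 4 groups. The CD (complete deletion) mice are heterozygous for a deletion that runs from Gtf2i to Fkbp6 on chromosome 5, so they keep 1 of 2 copies of Limk1, and WT mice have both. VERCUR mice drank curcumin at 60 and verapamil at 10 mg/kg/day, which the labels say began at 8 weeks of age and lasted 1 month. VEH mice drank water with the solvent DMSO in the study's methods and are called untreated in the labels.

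Each of the 4 combinations of VEH or VERCUR with WT or CD was 1 group, and all mice were labelled C57Bl6 and 16 weeks of age. The study used males, and gives a lower verapamil dose than the labels. In its methods the mice were killed at a younger age than the labels say, and treatment was kept up until then. The sources thus differ on whether the mice were still treated when the cortex was taken. The CD line had been crossed with mice that carry YFP under the Thy1 promoter, and whether the 12 sequenced mice carried it is not given in the sources used here. The deletion is present in every tissue, so the other deleted genes were reduced in the same mice as Limk1. Limk1 was low in 6 of 6 CD mice and in 0 of 6 WT mice, as labelled.

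Cofilin severs actin filaments and so speeds the turnover of the actin cytoskeleton, on which the shape of dendritic spines depends. LIM kinases add a phosphate to a serine at the start of cofilin and switch it off, TESK1 phosphorylates the same serine, and the slingshot phosphatases SSH1 and SSH2 remove the phosphate and switch it on again. LIM kinases are in turn activated by phosphorylation of a threonine in their activation loop.

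The sites on which these steps act are shown as coding bases of the GENCODE M21 transcripts of GRCm38. The first pair is the activation loop of both LIM kinases, with the codon of this threonine in capitals (codon 508 of 647 in Limk1 and codon 505 of 638 in Limk2).
Limk1: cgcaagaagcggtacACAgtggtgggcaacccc
Limk2: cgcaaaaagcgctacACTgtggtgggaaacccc
Over these 33 bases, 29 were identical between Limk1 and Limk2. The start of the coding sequence follows for both cofilins and for Dstn, which encodes the related actin-depolymerizing factor, with the codon of the serine that LIM kinases phosphorylate in capitals.
Cfl1: atggccTCTggtgtggctgtctctgatggt
Cfl2: atggcaTCTggagttacagtgaatgatgaa
Dstn: atggccTCAggagttcaggttgcggatgaa
Of these 30 bases, 20 were identical between Cfl1 and Cfl2, 19 between Cfl1 and Dstn and 21 between Cfl2 and Dstn. In spite of this likeness, 0 stretches of 100 bases, the length of a read, were shared between any 2 of the 7 genes in their annotated transcripts, so a read of that length without mismatches could be told apart between Limk1 and Limk2 and between Cfl1 and Cfl2.

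Limk1 (ENSMUSG00000029674.13) lies at chr5:134656039-134688598 on the minus strand, between Eif4h (chr5:134619721-134639490) and Eln (chr5:134702593-134747323), and shared 0 such stretches with any gene. Its antisense neighbour Gm10369 is not among the genes of the table, and the sources used here do not say whether strand was counted. Limk2 lies at chr11:3344256-3409189, Cfl1 at chr19:5490455-5495201, Cfl2 at chr12:54858809-54862877, Tesk1 at chr4:43441939-43448064, Ssh1 at chr5:113937094-113993894 and Ssh2 at chr11:77216287-77460220. Ssh1 is on the same chromosome as Limk1 but outside the deletion. Some neighbours could take or lend reads, since Cfl1 overlaps Snx32 and Tesk1 overlaps Cd72 on the opposite strand, and Ssh2 overlaps the pseudogene Gm12346 on its own strand. Of the stretches of Cfl1, 0.306% were also found in another gene.

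Between 40290000 and 56480000 reads were counted per mouse, as worked out from the steps of the normalized counts, and every member value rested on at least 1068 reads, the lowest number for Ssh1. For Limk1 the fewest were 1569 reads. The summed level of 7 markers of cortical excitatory neurons, of which 7 were in the table, lay between 0.953 and 1.19 times the VEH-WT mean in the 12 libraries. Such ratios compare the libraries with each other and cannot test the tissue label. Markers of oligodendrocytes (6 of 6 in the table, 0.429 to 1.23 times) and of striatal neurons (8 of 8, 0.397 to 1.71 times) varied more, with overlapping ranges in all 4 groups. The summed level of 5 interneuron markers was 0.958 to 1.04 times the VEH-WT mean in VEH-WT and 0.856 to 0.909 times in VEH-CD, and it was also below that of VEH-WT in VERCUR-WT (0.883 to 0.944 times) and VERCUR-CD (0.892 to 0.901 times). Its part in the results below was not tested. The library of VERCUR-CD mouse 2 stood apart, with a median correlation of 0.9876 with the other libraries against 0.9896 to 0.9924 for the rest, so the fits were repeated without it.

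**Figure D1:**
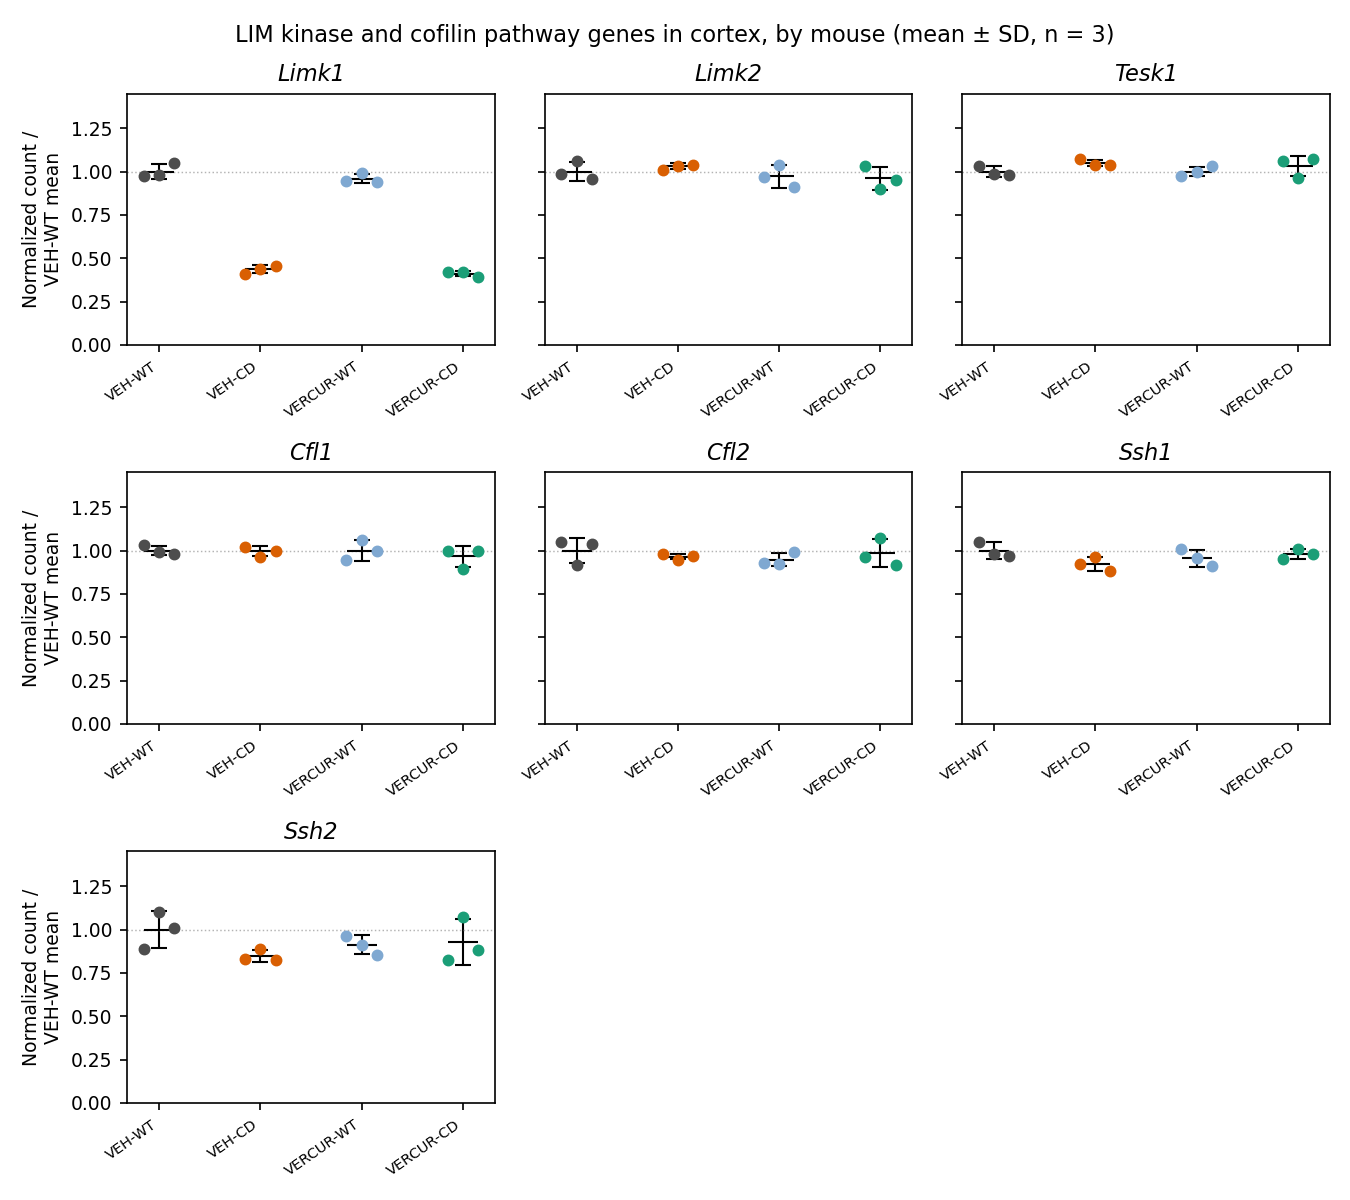
Normalized count of each of the 7 genes divided by its mean in the 3 VEH-WT mice (y axis), for each mouse (points) in the 4 groups, with the group mean and SD (n = 3). Limk1 lies between 0.393 and 0.457 in the 6 CD mice. The other 6 genes lie between 0.823 and 1.10 in all mice, both ends being Ssh2, whose mean in VEH-CD is 0.848.

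The first question was how far Limk1 fell with the loss of 1 copy. Limk1 fell to less than the level of 1 of 2 copies in CD mice of both treatments. The normalized count of Limk1 was 4240.2, 4282 and 4567 in the 3 VEH-WT mice and 1793, 1909 and 1994 in the 3 VEH-CD mice. It was 4119, 4319 and 4112 in VERCUR-WT and 1840.1, 1823 and 1716 in VERCUR-CD. The lowest WT mouse stood far above the highest CD mouse in each treatment, and the groups within a genotype lay close together. Limk1 fell by 1.20 on the log2 scale in VEH-CD against VEH-WT (SE 0.06, 95% interval -1.33 to -1.07, limma with Benjamini-Hochberg adjustment, adjusted p = 5.51e-07), and by 1.22 in VERCUR-CD against VERCUR-WT (SE 0.06, interval -1.35 to -1.09, adjusted p = 4.44e-07). These comparisons hold different mice, and both intervals lay below -1, the log2 value of 1 of 2 copies. Over both treatments the log2 fold change was -1.21 (SE 0.04, interval -1.30 to -1.12, limma adjusted p = 7.05e-09). In bulk tissue, fewer cells that express a gene and less RNA per cell cannot be told apart.

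Genes were called differentially expressed (DEGs) where the adjusted p was under 0.05 and expression rose or fell by over 25%. By this rule 1 of the 7 genes, Limk1, was called between VEH-CD and VEH-WT, where 0.257% of the 17111 genes tested were DEGs. In VERCUR-CD against VERCUR-WT it was again 1 of 7, against 0.146% of all genes, and over both treatments 1 of 7, against 0.321%. Limk1 belongs to the deletion that defines CD mice, so its call is a check of the genotype.

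Limk1 was also compared with the other 18 deleted genes that the table holds, mouse by mouse. CD mice had 43.2% ± 2.25 (SD, n = 6) of the mean Limk1 level of the 6 WT mice, with single mice between 40.2% and 46.7%. On the side of Limk1 towards Gtf2i, Eif4h, a translation initiation factor, stood at 50.7% ± 2.41, with its lowest mouse at 46.4%, near the highest mouse for Limk1. On the other side, Eln, which encodes elastin, stood at 45.2% ± 10.8, and its 6 CD mice spread from 32.4% to 62.0%, around the values of Limk1. Fzd9, a Wnt receptor at the far end of the genes measured, had the lowest share, 38.9% ± 5.77, from a WT level of 307.3 normalized counts against 4273 for Limk1. The remaining deleted genes stood between 46.4% (Clip2) and 61.4% (Lat2). Limk1 thus ranked second lowest of 19 over both treatments, with Fzd9 below it, and above both Fzd9 and Eln in the VERCUR mice.

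The log2 level of Limk1, relative to its VEH-WT mean, was set against the median of the 18 others in the same mouse. This difference was -0.37, -0.22 and -0.22 in VEH-CD and -0.26, -0.19 and -0.33 in VERCUR-CD. It was -0.03, -0.08 and 0.13 in VEH-WT and -0.07, -0.08 and -0.07 in VERCUR-WT. Every CD mouse lay below every WT mouse. The mean difference of CD minus WT was -0.23 on the log2 scale (exact permutation test within treatments, two-sided, p = 0.005, the smallest that its 400 arrangements can give). Limk1 was thus lower in CD mice than the typical deleted gene, by more than the spread between mice.

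**Figure D2:**
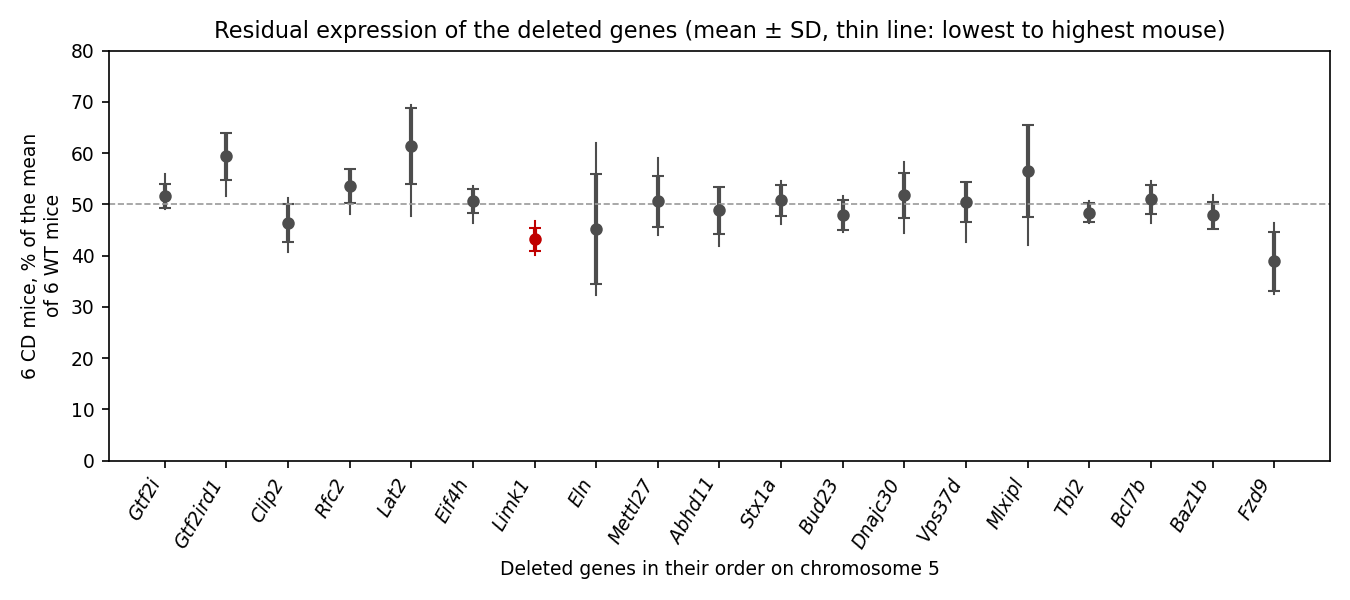
Level of each of 19 deleted genes in the 6 CD mice as a percent of the mean of the 6 WT mice (y axis), in their order along chromosome 5 (x axis), as mean and SD, with a thin line from the lowest to the highest mouse and a dashed line at 50%. Limk1 (red) lies at 43.2% with all 6 mice under 50%, above Fzd9 at 38.9%.

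The second question was whether Limk2, the paralogue that remains on both copies of another chromosome, moved with the loss of Limk1. Limk2 had normalized counts of 3951, 4234 and 3814 in VEH-WT, and of 4040.1, 4139 and 4172 in VEH-CD. In the treated mice they were 3871, 4160 and 3637 in VERCUR-WT and 4129, 3603 and 3807 in VERCUR-CD. The groups overlapped in every comparison. Limk2 had a log2 fold change of 0.04 in VEH-CD against VEH-WT (interval -0.10 to 0.19) and -0.02 in VERCUR-CD against VERCUR-WT (interval -0.16 to 0.13). Over both treatments it was 0.01, with an interval of -0.09 to 0.12, that is a fold change between 0.939 and 1.09. A rise of Limk2 larger than that upper bound lay outside the interval, and a smaller one was not detectable with these mice.

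Per kb of exon, both LIM kinase genes had nearly the same level in WT mice, 596.7 for Limk1 and 646.7 for Limk2, with overlapping ranges over the 6 mice. In CD mice Limk1 was at 257.7 ± 13.4 and Limk2 at 652.8 ± 37.4 (SD, n = 6) and the ranges no longer overlapped. The summed level of the LIM kinase genes, as RNA per kb, was 1265 ± 26.2 in VEH-WT, 940.1 ± 25.3 in VEH-CD, 1222 ± 58.2 in VERCUR-WT and 881.0 ± 46.7 in VERCUR-CD (SD, n = 3). This left VEH-CD at 74.3% and VERCUR-CD at 69.6% of the VEH-WT sum. Limk1 made up 48.2% of the sum in VEH-WT and 28.2% in VEH-CD, and 47.8% in VERCUR-WT and 28.5% in VERCUR-CD. These sums are descriptions of RNA, not of kinase activity, which was not measured here. Levels, sums and shares per kb rest on the length of all annotated exons, 7.162 kb for Limk1 and 6.099 kb for Limk2. Which of these exons are used in cortex was not tested.

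TESK1, the other kinase of the cofilin serine among the members, had the second highest level per kb. Tesk1 counts were 6650.0, 6337 and 6308 in VEH-WT, and 6877, 6698 and 6697 in VEH-CD. They were 6275, 6420.4 and 6624 in VERCUR-WT and 6787, 6202 and 6902 in VERCUR-CD. All 3 VEH-CD mice lay above all 3 VEH-WT mice, by a small step, and the VERCUR groups overlapped. Tesk1 had a log2 fold change of 0.07 in the VEH mice (interval -0.04 to 0.19, limma adjusted p = 0.623) and 0.04 in the VERCUR mice (interval -0.08 to 0.16), and neither passed the test.

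Cfl1, the cofilin of most non-muscle cells and the substrate of LIM kinases, had by far the highest level of the 7 genes. Its normalized counts were 39813, 38406 and 37776 in VEH-WT and 39538, 37251 and 38774 in VEH-CD. In the treated mice they were 36446, 40981 and 38710 in VERCUR-WT and 38820, 34524 and 38653 in VERCUR-CD. The lowest of the 12 values was that of VERCUR-CD mouse 2, and the groups overlapped throughout. Cfl1 had a log2 fold change of -0.01 (interval -0.14 to 0.13) in VEH-CD against VEH-WT, and over both treatments -0.03 (interval -0.12 to 0.06).

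Cfl2, the cofilin best known from muscle, had group means of 2558 ± 182 in VEH-WT, 2470 ± 42.1 in VEH-CD, 2425 ± 92.5 in VERCUR-WT and 2518 ± 204 in VERCUR-CD (SD, n = 3). Its log2 fold change of CD against WT over both treatments was 0.00 (interval -0.11 to 0.11). Cfl2 made up 5.45% of the summed cofilin RNA per kb in VEH-WT and 5.29% in VEH-CD. Set against the LIM kinase sum, cofilin RNA per kb was 11.4 ± 0.507 times as high in VEH-WT and 15.2 ± 0.752 times in VEH-CD, and 11.8 ± 0.548 and 15.8 ± 0.679 times in VERCUR-WT and VERCUR-CD. The higher ratio in CD mice came with nearly level cofilin and lower Limk1, as its parts above show.

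**Figure D3:**
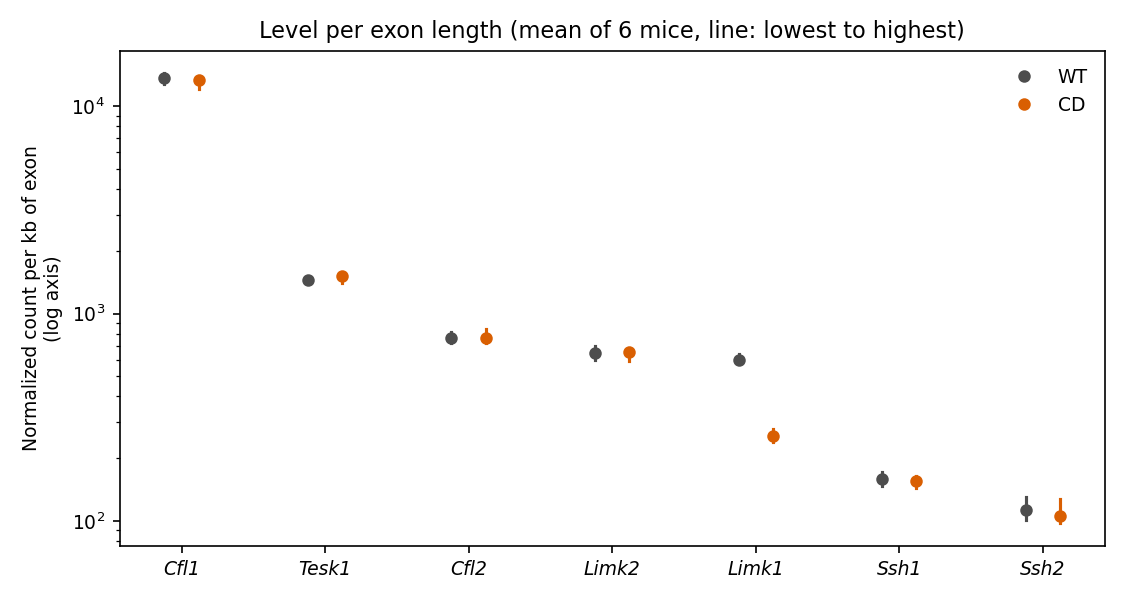
Normalized count per kb of exon (log axis) of the 7 genes in 6 WT and 6 CD mice, as the mean (point) and the lowest to highest mouse (line). The order is the same in both genotypes, and Limk1 is the only one of the 7 whose WT and CD ranges do not overlap.

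The order of the 7 genes by level per kb was the same in WT and CD mice. Cfl1 was first at 13600 in WT, followed by Tesk1 at 1451, Cfl2 at 762.9, Limk2 at 646.7 and Limk1 at 596.7. Ssh1 at 159.5 and Ssh2 at 113.1 were the lowest. Limk2 and Limk1 overlapped in WT mice, while the other neighbours in this order were apart in all 6 mice of a genotype.

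The slingshot phosphatases, which undo the action of LIM kinases, were both lower in VEH-CD than in VEH-WT without passing the test. Normalized counts of Ssh1 in the VEH-WT mice were 1527, 1421 and 1402, and those in the VEH-CD mice 1333, 1393 and 1279. For Ssh2 they were 1944, 2417 and 2218 in VEH-WT and 1822, 1943 and 1814 in VEH-CD. The groups did not overlap for either gene, although for Ssh2 the highest VEH-CD mouse and the lowest VEH-WT mouse differed by about 1 count. For Ssh1 the log2 fold change was -0.12 (interval -0.26 to 0.02, limma adjusted p = 0.498) and for Ssh2 -0.23 (interval -0.45 to -0.01, adjusted p = 0.393).

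The same difference was not seen in the VERCUR mice. Ssh1 had 1459, 1385 and 1317 in VERCUR-WT and 1380.3, 1461 and 1424 in VERCUR-CD. Ssh2 had 2114, 2002 and 1873 in VERCUR-WT and 1805, 2355 and 1938 in VERCUR-CD. The groups overlapped for both genes, and the highest Ssh2 value was that of VERCUR-CD mouse 2. The log2 fold change of Ssh2 was 0.02 with that mouse and -0.09 without it. The interaction of genotype and treatment was 0.16 for Ssh1 (interval -0.04 to 0.35) and 0.25 for Ssh2 (interval -0.06 to 0.56), with a limma adjusted p of 0.816 for each. Without VERCUR-CD mouse 2 the interaction was 0.14 for Ssh1 (interval -0.07 to 0.34) and 0.14 for Ssh2 (interval -0.12 to 0.40), so a difference between treatments was not shown.

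In VEH-CD against VEH-WT, all 3 mice of each group were apart for 4 of the 7 genes, with Limk1, Ssh1 and Ssh2 lower and Tesk1 higher. This held for 20.6% of all genes tested, 11.4% lower and 9.28% higher. In VERCUR-CD against VERCUR-WT it was 1 of 7, Limk1, which was lower, against 7.74% of all genes, 3.83% lower and 3.91% higher. In the VEH mice 2 of the 7 had an unadjusted limma p under 0.05 (Limk1 and Ssh2), where 11.8% of all genes did. The 6 genes other than Limk1 had a median log2 fold change of -0.03 in the VEH mice, between -0.23 (Ssh2) and 0.07 (Tesk1), against a median of -0.003 over all genes. In the VERCUR mice their median was 0.03, between -0.05 (Cfl1) and 0.05 (Cfl2), against 0.004 over all genes.

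The signs of some of these small differences rested on VERCUR-CD mouse 2. Without it, the log2 fold change in VERCUR-CD against VERCUR-WT was 0.03 for Limk2, 0.00 for Cfl1, -0.01 for Cfl2 and -0.09 for Ssh2, in place of -0.02, -0.05, 0.05 and 0.02. For Tesk1 it was 0.09 in place of 0.04, and for Ssh1 0.02 in place of 0.04. Over both treatments it was 0.04 for Limk2, -0.00 for Cfl1 and -0.03 for Cfl2, in place of 0.01, -0.03 and 0.00. For Ssh1 it was -0.05 in place of -0.04. Ssh2 moved away from 0, to -0.16 (interval -0.29 to -0.03, limma adjusted p = 0.229) from -0.11 (interval -0.26 to 0.05). Tesk1 did so too, to 0.08 (interval 0.01 to 0.15, adjusted p = 0.272) from 0.06 (interval -0.03 to 0.14). In VERCUR-CD against VEH-CD the log2 fold change was 0.01 for Ssh2 in place of 0.12, and -0.05 for Limk2 in place of -0.10. Limk1 was at -1.23 in VERCUR-CD against VERCUR-WT, and none of the other 6 genes passed the adjusted test without that mouse.

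The third question was whether VERCUR changed any of these genes. In VERCUR-CD against VEH-CD 0 of 7 genes were DEGs by limma, where 0% of all genes were, and 0 of 7 had an unadjusted p under 0.05. In VERCUR-WT against VEH-WT 0 of 7 were DEGs and 0 of 7 had an unadjusted p under 0.05, with 0% of all genes called. The interaction of genotype and treatment gave 0 of 7 at an adjusted p under 0.05 (again 0% of all genes) and 0 of 7 at an unadjusted one. These comparisons share the VEH-CD or VEH-WT mice with those of the genotypes.

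Limk1 stayed low under treatment. Its log2 fold change was -0.08 in VERCUR-CD against VEH-CD (interval -0.21 to 0.05) and -0.06 in VERCUR-WT against VEH-WT (interval -0.19 to 0.07). The interaction was -0.02, with an interval of -0.20 to 0.16. A return of Limk1 to the WT level would have been a log2 fold change of about the size of the genotype difference, and the upper bound of 0.05 in CD mice lay far under it.

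Groups of VERCUR-CD and VEH-CD were apart for 0 of the 7 genes, against 8.34% of all genes, and VERCUR-WT and VEH-WT for 0 of 7, against 9.72%. Within some marker lists the fitted changes with treatment shared a sign, with 0 DEGs by limma. The markers of a list come from the same mice, so they are not separate observations. Striatal markers were lower for 8 of 8 in VERCUR-CD than in VEH-CD (median log2 fold change -0.61) and for 8 of 8 in VERCUR-WT than in VEH-WT (-0.55). In each comparison 0 of 8 had an unadjusted p under 0.05. Their summed level, relative to the median library, overlapped between the treatments. It ran from 0.517 to 2.22 in VERCUR-WT and from 0.991 to 1.91 in VEH-WT, and from 0.527 to 1.68 in VERCUR-CD and 0.936 to 2.1 in VEH-CD. Oligodendrocyte markers were lower for 6 of 6 in both comparisons (median log2 fold change -0.09 in CD and -0.49 in WT mice). Of these, 0 of 6 had an unadjusted p under 0.05 in each, and their summed levels overlapped. Microglial markers were higher for 6 of 6 in both (0.09 and 0.12). Red blood cell markers were lower for 5 of 5 in CD mice (-0.34) and higher for 5 of 5 in WT mice (0.20). Astrocyte markers were higher for 5 of 5 in CD mice (0.19, 1 of them at an unadjusted p under 0.05) and for 4 of 5 in WT mice (0.07). The part of these markers in the values of the 7 genes was not tested.

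**Figure D4:**
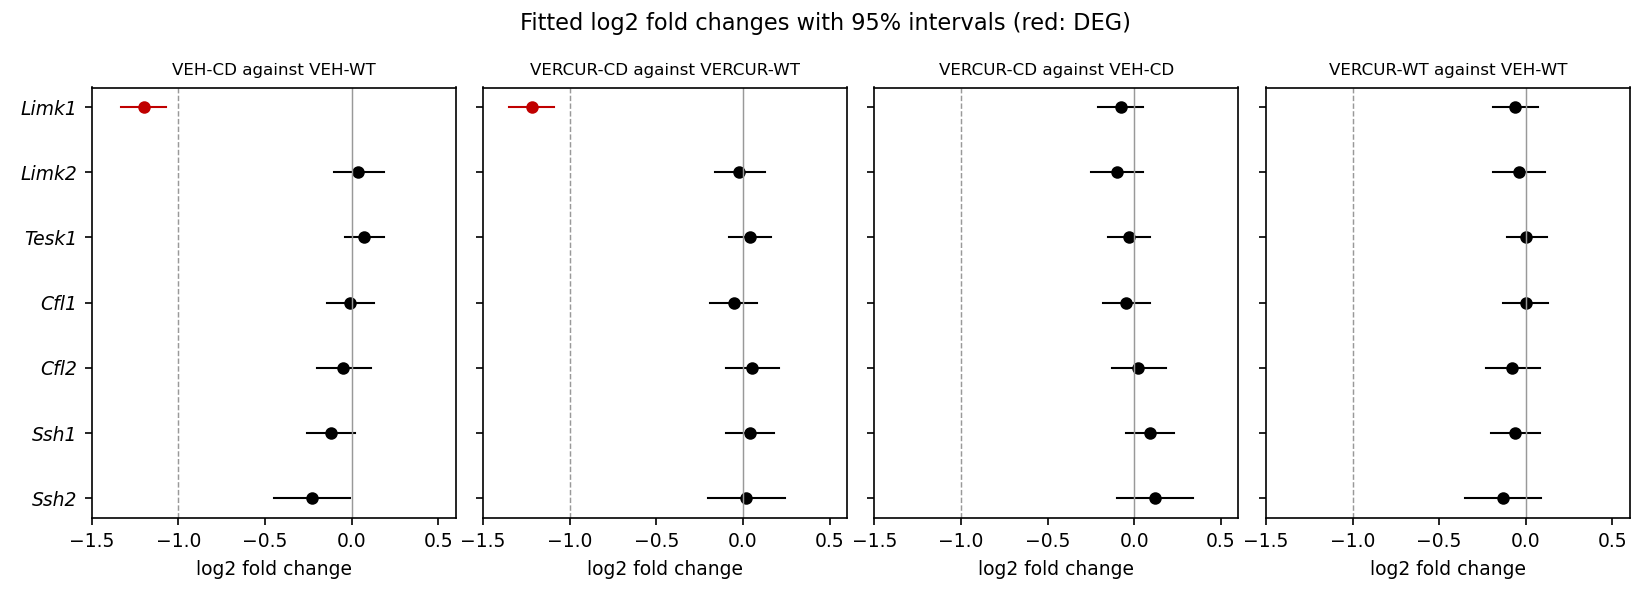
Fitted log2 fold changes (x axis) of the 7 genes with 95% intervals in 4 comparisons, with DEGs in red, a line at 0 and a dashed line at -1. Limk1 lies left of -1 in both genotype comparisons, and the other genes lie around 0.

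Around these genes, 52 further genes of the pathway were listed by role, and 52 of 52 could be tested. In each of the 7 comparisons 0 of 52 were DEGs by limma. At an unadjusted p under 0.05 there were 5 in VEH-CD against VEH-WT, which is 9.62% of them beside 11.8% of all genes, and 2 in VERCUR-CD against VERCUR-WT (3.85% beside 4.10%). Over both treatments there were 6 (11.5% beside 9.64%). In VERCUR-CD against VEH-CD there were 0 of 52, where 3.54% of all genes were under it. In the genotype comparisons the 52 genes as a group thus stood close to the background of the table.

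Among other cofilin phosphatases and kinases and their regulators, 0 of 14 were DEGs, with medians of 0.00 in both genotype comparisons. Prkd2, a protein kinase D, had 189.6 ± 50.1 counts in VEH-WT, against 135.1 ± 15.1 in VEH-CD, and a log2 fold change over both treatments of -0.30 (interval -0.55 to -0.05, limma adjusted p = 0.405). Ppp3ca, a catalytic subunit of calcineurin, the calcium-dependent phosphatase that can activate slingshot, had a log2 fold change of 0.13 (interval 0.02 to 0.23, adjusted p = 0.407). Of the ADF/cofilin family and the partners of cofilin, 0 of 12 were DEGs, and their fold changes in VEH-CD against VEH-WT ran only from -0.04 to 0.19. Coro1c, a coronin, and Cttn, cortactin, which bind actin filaments and branches, had log2 fold changes of -0.07 and -0.06 over both treatments. Dstn had 7209 ± 41.5 counts in VEH-WT, against 7529 ± 72.9 in VEH-CD, and 7332 ± 230 in VERCUR-WT, against 7304 ± 344 in VERCUR-CD (SD, n = 3). Its log2 fold change was 0.06 in the VEH mice (interval -0.04 to 0.17, limma adjusted p = 0.644) and -0.01 in the VERCUR mice (interval -0.11 to 0.10, adjusted p = 1).

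Of 15 genes of actin and its assembly, 0 were DEGs. Actr3, a subunit of the Arp2/3 complex that starts filament branches, had 9482, 9320.1 and 9342 counts in VEH-WT, against 10329, 10617 and 10215 in VEH-CD. In the treated mice it had 9757, 8913 and 9164 in VERCUR-WT and 9957, 11895 and 10581 in VERCUR-CD. Every CD mouse lay above every WT mouse of the same treatment. CD mice were apart in this direction for 9.28% of all genes in the VEH mice and 3.91% in the VERCUR mice. The highest value of Actr3 was that of VERCUR-CD mouse 2. The log2 fold change of Actr3 over both treatments was 0.18 (interval 0.08 to 0.28, limma adjusted p = 0.177), and 0.15 without that mouse (interval 0.07 to 0.22, adjusted p = 0.107). Arpc2, another subunit, had a log2 fold change of 0.07 (interval 0.00 to 0.14, adjusted p = 0.506). Other subunits did not share this direction. Arpc5 (-0.08 in the VEH and -0.06 in the VERCUR mice) and Arpc1b (-0.07 and -0.08) were lower in CD mice, and Actr2 (0.02 and 0.12) was higher. Arpc1a, Arpc3, Arpc4 and Arpc5l were positive in the VEH and negative in the VERCUR mice. The median of the list was 0.05 in the VEH and -0.05 in the VERCUR mice.

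SRF, with its MRTF partners, is a transcription factor that responds to the pool of free actin. Of 11 genes of this group 0 were DEGs, and the median was -0.08 in the VEH mice and -0.02 in the VERCUR mice. In the VEH mice 3 of 11 had an unadjusted limma p under 0.05, beside 11.8% of all genes. In the VERCUR mice it was 0 of 11, beside 4.1%. The log2 fold change was negative for 8 of 11 in each. Srf itself had 2189, 2609 and 2470.1 counts in VEH-WT, against 1770, 2018 and 1731 in VEH-CD. It had 2133, 2089 and 2073 in VERCUR-WT and 2049, 2093 and 1887 in VERCUR-CD. The VEH groups were apart, as they were in this direction for 11.4% of all genes, and the VERCUR groups overlapped. Its log2 fold change was -0.40 in the VEH mice (interval -0.57 to -0.23, limma adjusted p = 0.0697), the lowest adjusted p of the 52 genes, and -0.06 in the VERCUR mice (interval -0.24 to 0.11, adjusted p = 1). Of the 18 alternatives in the VEH mice, Srf was a DEG only without VEH-WT mouse 1, without VEH-CD mouse 2 and with sample quality weights. Under those weights 349 of all genes were DEGs, in place of 44. Actn1, an actinin, had a log2 fold change of -0.12 over both treatments (interval -0.23 to -0.00, adjusted p = 0.497).

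**Figure D5:**
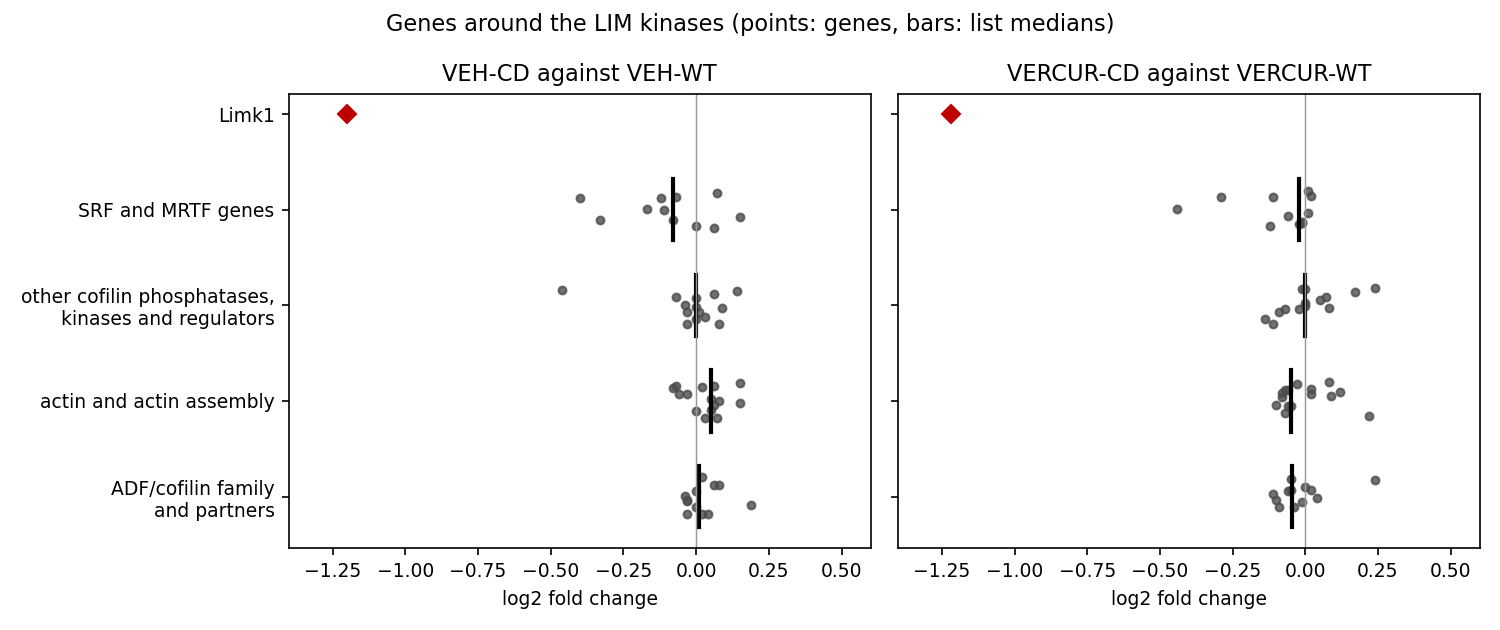
Log2 fold changes (x axis) of the 52 pathway genes tested, by list (rows), in both genotype comparisons, with a bar at the median of each list and Limk1 as a red diamond. The lists lie around 0, with medians between -0.08 and 0.05, and Limk1 lies at -1.20 and -1.22.

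The genes whose pattern over the 12 mice was most like that of Limk1 were sought among the other 17110 genes tested, by the root-mean-square difference of their centred log2 levels. Limk1 varied over the 12 mice mainly by its fall in CD mice, so this measure favours genes that fell alike, such as the deleted ones. The nearest 5 were all deleted genes, Tbl2 (0.0993), Clip2 (0.1007), Bud23 (0.1152), Baz1b (0.1213) and Eif4h (0.1346). Outside the 19 deleted genes, the nearest were Ighg2c (0.2457, rank 15), Zfp970 (0.2709, rank 17) and Gm14295 (0.2977, rank 19). Ighg2c, a constant region of immunoglobulin heavy chains, had 265.3 ± 25.0 counts in VEH-WT, 126.8 ± 23.3 in VEH-CD, 234.8 ± 12.7 in VERCUR-WT and 89.8 ± 17.7 in VERCUR-CD (SD, n = 3). Zfp970 had 379.3, 211.7, 335.9 and 204.9 in the same order, and Gm14295 1091, 719.8, 1065 and 658.0. Ighg2c, Zfp970 and Gm14295 belong to multigene families, in which reads can be split between copies. Whether this had a part in their values was not tested. None of the other 6 genes was among these nearest genes, which follows from their lack of such a fall.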

How the data were processed

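The authors aligned paired-end reads of 100 bases to GRCm38 with STAR 2.5.3a and deposited 1 table of normalized counts per gene and mouse, with no unit stated beyond that. The counting program, the annotation release and the normalization are not given in the sources used here. Within a library, low values came in whole multiples (100%, to within 0.1) of the worth of 1 read, which gave the reads counted, but tests used the normalized values as deposited. The authors' tables of relative expression were not used here.

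Values were taken as log2(normalized count + 1) and fitted with limma 3.58.1 (R 4.3.3) over the 17111 genes with a mean of at least 10, with 4 group means over all 12 mice and an intensity trend. The fit was also run on simulated counts of independent genes, with spreads taken from these data. That run cannot show how well the fit holds for these 12 libraries. Two-sided p values were adjusted by Benjamini and Hochberg, over every gene tested, for each comparison. Intervals are 95% intervals of the fit, and fold changes are on the log2(value + 1) scale. The study instead used a general linear model with a Wald test after a correction by coefficient of variation, whose steps are not given in the sources used here. Removal of the farthest value in groups with a high coefficient of variation was run as an alternative, and may differ from that correction. Groups came from the labels, and p values measure the spread between mice. Levels per kb used the union of the exons of GENCODE M21, in which 17181 of 17202 genes were found. That length can exceed that of the transcripts made in cortex, so levels, ratios and orders per kb are approximate between genes.

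The 9 members and all lists were chosen with earlier results of these data known, and 2 of the 9 members and 2 lists are not reported here. From each list, the genes called and the 2 with the smallest p over both treatments were named, with the 2 neighbours of Limk1, the 5 genes nearest to its pattern and the 3 nearest outside the deletion. Dstn, Fzd9, Clip2 and Lat2 were named after their values were seen. Alternatives were another pseudocount (0.1 or 5), another filter, another centring, quantile normalization, no trend, sample weights, a replicate block and leaving out each mouse.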

Additional observations from a re-analysis of the deposited data

How the results depend on the processing

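The counts of DEGs among the 7 genes reported (1 of 7 in the 3 genotype comparisons, 0 of 7 in the others) were the same under every alternative run. Leaving out each mouse in turn gave log2 fold changes of Limk1 between -1.24 and -1.16 in VEH-CD against VEH-WT and between -1.24 and -1.19 in VERCUR-CD against VERCUR-WT. The other 12 alternatives gave -1.20 to -1.17 and -1.26 to -1.22. The interval of Limk1 stayed below -1 in 18 of 18 alternatives of each, the nearest upper bounds being -1.02 without VEH-CD mouse 1 and -1.04 without VERCUR-CD mouse 3. The difference between Limk1 and the other deleted genes was -0.24 to -0.20 without each mouse, and -0.23 to -0.22 otherwise, including with the 13 other deleted genes of a mean of at least 500. For the 6 other genes, 846 of 846 alternative fits kept the side of the threshold, with a lowest adjusted p of 0.0937.

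The number of DEGs over all genes depended more on the settings. In VEH-CD against VEH-WT it was 44, with 349 under sample quality weights and 972 after removal of values in groups with a coefficient of variation of 20% or more, which takes out the farthest value before the test. It was 24 to 47 without each mouse, with 24 without VEH-WT mouse 2, VEH-CD mouse 1 or VEH-CD mouse 3 and 28 without VEH-WT mouse 3. In VERCUR-CD against VERCUR-WT the 25 DEGs became 46 under the weights and 448 under the removal, and over both treatments 55 became 182 and 837. The removal also gave 241 DEGs in VERCUR-CD against VEH-CD and 649 in VERCUR-WT against VEH-WT, where there were 0. Among the pathway genes Srf became 1 DEG under the weights and Acta2 under the removal, and Srf also without VEH-WT mouse 1 or VEH-CD mouse 2.

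Replicate numbers did not pair the mice: residuals of same-numbered mice correlated between -0.347 and 0.267 over 18 pairs, 4 of them over 0.1, and 5 of 12 mice correlated best with their own number. With a replicate block Limk1 had -1.20 and -1.22, and the count of DEGs was 40 and 26 in place of 44 and 25. The count models planned on reads recovered from the steps were not run. A fit of only the groups compared does not exist for comparisons that use all 4 groups. With 3 mice in each group, the widest interval of these genes was that of the interaction of Ssh2, from -0.06 to 0.56 on the log2 scale.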
